A study of Mus musculus with 34 samples.

Results

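The interval from 60 to 65 Mb of mouse chromosome 13 holds a cluster of zinc finger genes around 62 Mb, a family of placental cathepsin genes on one side of it, and the genes Ptch1, Fancc, Ercc6l2, Ctsl and Cntnap3 on the other. Every listed ChIP-seq region on chromosome 13 with a start between those positions was taken. That gave 549 of 248336 regions in the list shared by 3 of the tables, and 282 of 96988 regions in the separate list used for the first H3K27ac series. All of them had counts. After a filter on low counts, 146 and 220 of the 549 entered the tests of H3K9me3 in the separate and the repeated series, and 277 of 282 and 476 of 549 entered those of H3K27ac.

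Chromatin of mouse embryonic stem cells was cut with micrococcal nuclease and precipitated for H3K9me3 or H3K27ac. In the separate series, 3 independent C57BL/6J (B6) lines were compared with 3 DBA/2J (D2) lines for each mark. In the repeated series, 1 line of each of 4 genotypes was used: B6, D2, B6-13D2, which carries a D2 segment of chromosome 13 on the B6 background, and D2-13B6, which carries the B6 segment on the D2 background. By their labels, the B6 and D2 lines of the repeated series are also replicate 3 of B6 and replicate 2 of D2 in the separate series. All cells were grown in serum with LIF and the inhibitors PD0325901 and CHIR99021. The labels delimit the segment by SNP names without positions, so where it begins within the interval is not known here. H3K9me3 had 3 libraries each of B6 and D2-13B6 and 2 each of B6-13D2 and D2 in the repeated series. H3K27ac had 3 libraries per genotype, of which 1 pair per genotype differed by less than sampling noise and was counted as 1 sample, leaving n = 2. Outside D2-13B6 the other pairs of a genotype were also close to sampling noise, with a chi-square per degree of freedom of 1.01 to 1.03. The libraries of the repeated series share a line, so their p-values measure the spread between libraries of single lines. A difference between genotypes there cannot be told apart from a difference between clones. Antibodies against H3K27ac differed: Abcam supplied that of the separate series and Cell Signaling that of the repeated one.

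H3K9me3 marks condensed, silenced chromatin, and in embryonic stem cells it covers many retrotransposons and clusters of zinc finger genes. Many zinc finger proteins of such clusters carry a KRAB domain, which recruits the machinery that deposits this mark. H3K27ac marks active promoters and enhancers. The placental cathepsins are cysteine proteases expressed mainly in trophoblast, so that embryonic stem cells are a setting in which their genes are normally silent.

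Library totals, taken over all listed regions, were 1487862 to 2559262 counts for H3K9me3 in the separate series and 1538145 to 2185977 in the repeated series. For H3K27ac they were 15444270 to 18272793 and 8735674 to 11543469. The interval held 0.185% to 0.351% of each total. One library stood apart for each mark: D2-13B6 replicate 1 differed from its sister libraries by a chi-square per degree of freedom of 2.46 to 2.47 for H3K9me3 and 2.79 to 2.81 for H3K27ac, against at most 1.55 and 1.03 between the libraries of any other repeated line. Over the rest of chromosome 13, outside 60 to 70 Mb, D2-13B6 was also lower than B6, with a median log2 fold change of -0.32 for H3K9me3 and -0.21 for H3K27ac. Other contrasts that do not involve this line had medians between -0.09 and -0.02 there for H3K9me3 and between -0.05 and 0.00 for H3K27ac. Stem cell marker promoters carried 1203 to 1439 CPM of H3K27ac in sum in the repeated series and 1817 to 1975 in the separate one. Fibroblast markers summed to 9.82 to 26.4 and 0.958 to 1.66 CPM, and primitive endoderm markers to 10.7 to 23.0 and 21.7 to 23.4 CPM. No region was listed at the promoter of Col3a1 in either series, nor at those of Col1a1, Col1a2, Postn and Foxa2 in the separate one, so these were not measured there and the sums leave them out.

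Regions on which the contrasts turned are shown here by the middle 300 bases of each, taken from the RefSeq sequence of GRCm38 and written 5′ to 3′, with CG dinucleotides in capitals. The first pair and the 2 regions that follow were called for H3K9me3 in both comparisons of the segment. The next pair was called for H3K27ac in both. The last lies beyond Zfp808 and was high in acetylation in D2-13B6 alone.
Region near Cts8, chr13:61241437-61241736, plus strand: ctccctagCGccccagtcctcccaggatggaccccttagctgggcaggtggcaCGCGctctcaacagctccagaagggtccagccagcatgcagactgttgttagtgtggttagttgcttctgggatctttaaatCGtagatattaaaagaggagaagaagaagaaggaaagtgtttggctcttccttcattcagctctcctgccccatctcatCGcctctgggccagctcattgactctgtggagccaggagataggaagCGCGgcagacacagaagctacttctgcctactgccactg
Region in an intron of Aopep, chr13:63216705-63217004, plus strand: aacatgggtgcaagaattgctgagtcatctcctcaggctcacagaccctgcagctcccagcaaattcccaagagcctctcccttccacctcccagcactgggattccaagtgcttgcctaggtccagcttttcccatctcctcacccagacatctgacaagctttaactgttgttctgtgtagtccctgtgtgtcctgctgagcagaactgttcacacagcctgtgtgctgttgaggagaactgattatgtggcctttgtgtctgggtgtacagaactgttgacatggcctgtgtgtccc
Region beyond Ercc6l2, methylated with the D2 segment, chr13:63925714-63926013, plus strand: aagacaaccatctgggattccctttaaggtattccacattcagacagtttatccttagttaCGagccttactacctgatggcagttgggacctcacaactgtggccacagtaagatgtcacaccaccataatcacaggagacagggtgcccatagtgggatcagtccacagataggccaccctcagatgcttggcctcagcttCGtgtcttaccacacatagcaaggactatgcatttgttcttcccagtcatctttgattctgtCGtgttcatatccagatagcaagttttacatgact
Region near Hsd17b3, chr13:64045803-64046102, plus strand: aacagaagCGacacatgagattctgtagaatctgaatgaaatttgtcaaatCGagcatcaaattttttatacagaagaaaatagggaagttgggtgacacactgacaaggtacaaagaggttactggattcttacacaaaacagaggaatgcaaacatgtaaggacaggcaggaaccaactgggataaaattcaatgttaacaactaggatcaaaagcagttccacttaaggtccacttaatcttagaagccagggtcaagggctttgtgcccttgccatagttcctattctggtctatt
Region beyond Ercc6l2, acetylated with the B6 segment, chr13:63923986-63924285, plus strand: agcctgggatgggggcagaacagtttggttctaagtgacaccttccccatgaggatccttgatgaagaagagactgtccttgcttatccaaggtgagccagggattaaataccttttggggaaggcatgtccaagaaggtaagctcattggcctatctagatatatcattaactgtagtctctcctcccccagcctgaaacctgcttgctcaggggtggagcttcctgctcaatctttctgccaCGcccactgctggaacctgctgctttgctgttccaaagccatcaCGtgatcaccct
Region in an intron of Cntnap3, chr13:64855163-64855462, plus strand: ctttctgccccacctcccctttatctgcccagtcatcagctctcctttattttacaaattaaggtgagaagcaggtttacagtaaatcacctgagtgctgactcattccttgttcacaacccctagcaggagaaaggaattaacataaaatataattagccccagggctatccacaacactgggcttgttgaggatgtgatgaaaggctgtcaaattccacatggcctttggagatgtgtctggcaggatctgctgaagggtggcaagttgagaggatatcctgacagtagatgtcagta
Region beyond Zfp808, chr13:62253841-62254140, plus strand: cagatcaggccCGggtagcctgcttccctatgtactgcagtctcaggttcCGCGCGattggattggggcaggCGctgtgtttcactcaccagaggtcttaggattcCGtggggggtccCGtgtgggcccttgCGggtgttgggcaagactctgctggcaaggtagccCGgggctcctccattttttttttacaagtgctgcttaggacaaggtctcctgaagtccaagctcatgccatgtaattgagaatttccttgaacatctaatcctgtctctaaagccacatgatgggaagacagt
In this order the printed bases hold 7, 0, 3, 2, 2, 0 and 9 CG, a motif that reads the same on both strands. Of the 490 regions of the interval that were 300 bases or wider, 441 (90.0%) held at least 1 CG in their middle 300 bases, with a median of 3 and quartiles of 1 and 6. These are reference (C57BL/6J) sequences. Reads of both strains were placed on that genome, so a D2 sequence change within a region can lower its D2 counts, which was not tested. The soft-masked repeats of the genome covered 84.0% of the printed bases near Hsd17b3, 66.0% of those beyond Zfp808 and 0 of those in the methylated region beyond Ercc6l2.

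Summed H3K9me3 was highest in the 4 steps from 61.75 to 62.75 Mb, over the zinc finger cluster and the sequence before it, in all 4 repeated lines. Counts of the regions were summed in 20 steps of 250 kb, and the level of each step is given in CPM, the count per 1e6 library counts. The step from 62.25 to 62.50 Mb, beyond Zfp808 and towards Zfp935, both zinc finger genes, was the highest of the interval in the repeated B6 libraries, within the top 0.996% of 10239 steps of the genome. Its 3 repeated B6 libraries were at 314, 315 and 316 CPM, the B6-13D2 libraries at 298 and 333, the D2 libraries at 280 and 291, and the D2-13B6 libraries at 209, 177 and 167. The D2-13B6 libraries lay below all others. In D2-13B6 this step ranked only within the top 11.1%. In the separate B6 lines the step before it, from 62 to 62.25 Mb, was higher than this one, at a mean of 402 against 385 CPM. Per kilobase of region, the 129 listed regions between 62 and 63 Mb, tested or not, had a median of 11.6 CPM in B6, 10.4 in B6-13D2, 9.16 in D2 and 7.61 in D2-13B6. The 130 listed between 63 and 64 Mb had medians of 3.74 to 4.89 CPM. Of these, 77 and 37 were tested. Those between 61 and 62 Mb had medians of 9.78 CPM in B6, 10.54 in B6-13D2, 7.60 in D2 and 7.88 in D2-13B6.

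**Figure D1:**
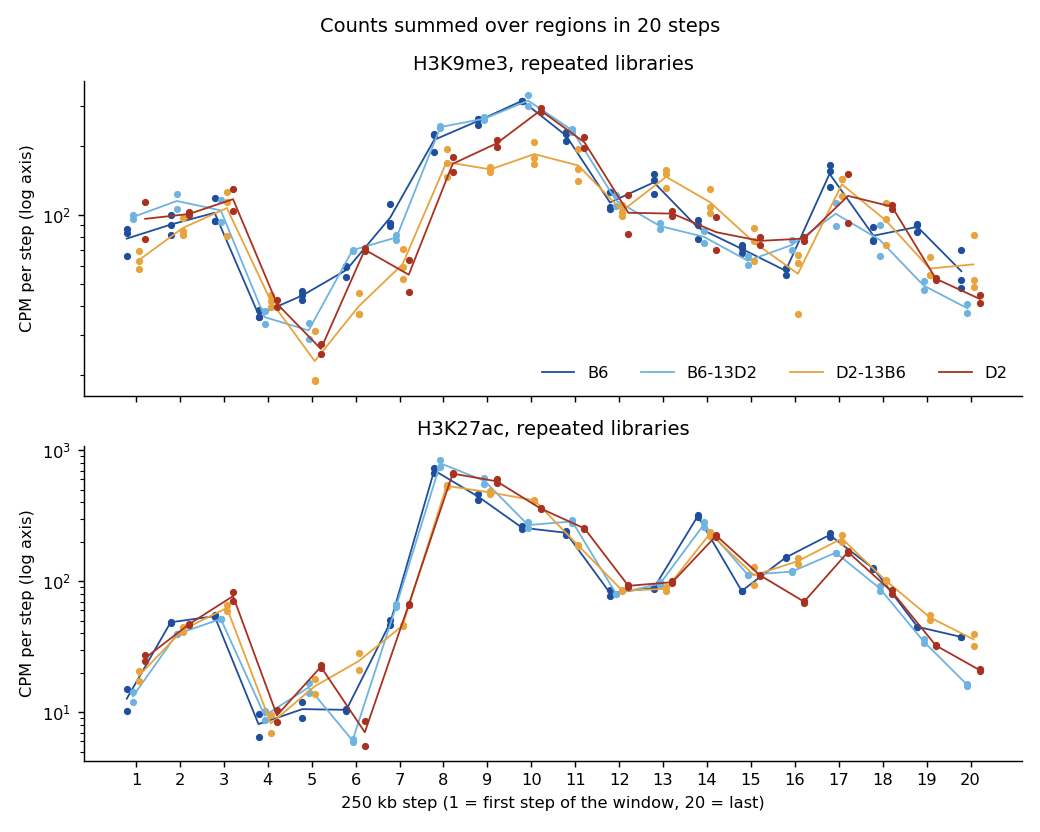
CPM summed over regions (log axis) against the 250 kb step of the interval for H3K9me3 and H3K27ac in the repeated series; points are libraries or summed pairs and lines are means of B6, B6-13D2, D2-13B6 and D2. H3K9me3 is highest at steps 8 to 11, and in step 10 the D2-13B6 points lie lowest, at 167 to 209 CPM.

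The question of the separate lines is how the strains differ. Between D2 and B6 lines, 54 of 146 tested regions differed in H3K9me3 at an adjusted p under 0.05 (edgeR quasi-likelihood test, Benjamini-Hochberg over the genome), 20 higher and 34 lower in D2. Over the genome 34.7% were called (17.3% higher, 17.4% lower), so the share in the interval is near the background. Of the 20 steps, 13 differed, against 30.5% of steps over the genome. The region at chr13:63814455-63816285, at the promoter of Ercc6l2, a helicase-like gene of DNA repair, was at 0, 1.09 and 3.08 CPM in B6 lines and at 12.3, 21.2 and 19.5 CPM in D2 lines. The groups did not overlap, and D2 was at least 5.58-fold higher against a floor of 3 counts per library (adjusted p = 8.2e-07). In the repeated series the same region was at 1.52 to 3.63 CPM in B6 and at 7.16 and 7.75 in D2, a difference of 1.43 ± 0.71 that was not called (adjusted p = 0.193). At chr13:61241142-61242031, 4.7 kb from the placental cathepsin gene Cts8, the B6 lines were at 39.1, 40.2 and 25.6 CPM and the D2 lines at 5.76, 2.50 and 2.25 CPM. D2 was lower there by a log2 fold change of -3.33 ± 0.35 (SE, n = 3 and 3, adjusted p = 4.15e-10), again with no overlap. Regions at chr13:64589437-64589778, which is intergenic, and chr13:64854989-64855637, in an intron of the adhesion gene Cntnap3, were lower in D2 by -3.27 ± 0.41 and -2.77 ± 0.35.

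For H3K27ac, 123 of 277 regions differed between the separate lines, 48 higher and 75 lower in D2, against 49.3% called over the genome (24.3% and 25%). Steps were called in 14 of 20 cases, against 64.6%. The largest fold change among called regions without overlap was at chr13:63923373-63925381, between Ercc6l2 and Hsd17b3. It had 8.96, 9.82 and 9.24 CPM in B6 and 1.48, 1.60 and 1.5 CPM in D2, a log2 fold change of -2.61 ± 0.16 (adjusted p = 8.03e-20). An intron of Ercc6l2 at chr13:63862884-63863832 changed by -2.30 ± 0.28, and the Cntnap3 intron at chr13:64854015-64856905 by -2.26 ± 0.16. In the other direction, an exon of Habp4, which encodes a hyaluronan- and RNA-binding protein, at chr13:64169112-64170377 rose from 0.63, 0.63 and 0.38 CPM to 3.47, 2.98 and 3.46 CPM, by 2.57 ± 0.28. Regions named for a single comparison were chosen among those whose groups did not overlap, so the absence of overlap in them is part of the choice.

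The reciprocal lines ask which of these differences go with the chromosome 13 segment and which with the background. Where a region of the interval lies outside the segment, its own alleles belong to the background. Since the limits of the segment are not known here, a background difference cannot be assigned to the rest of the genome. The segment was compared in the B6 background (B6-13D2 minus B6) and in the D2 background (D2 minus D2-13B6), and these comparisons share no library. For H3K9me3, the B6 background gave 11 calls among 220 regions, 3 higher and 8 lower with the D2 segment, against 1.69% called over the genome (1.23% higher and 0.458% lower). The D2 background gave 13 calls, 10 higher and 3 lower, against 2.2% (1.81% and 0.395%), 18 without D2-13B6 replicate 1, and 6 without either D2 library. When libraries were scaled on the rest of chromosome 13, 10 regions were called there, of which 6 rose. Both comparisons called 4 regions in the same direction, 1 higher and 3 lower, against 0.68% of regions over the genome, and none in opposite directions. All 4 were also called in the same direction between the separate lines, which include the B6 and the D2 line of the repeated series and so are not independent of them. They depend on few libraries: 1 of 4 was left without D2 replicate 1 and 2 without D2 replicate 2. DESeq2 called 7 and 4 regions in the B6 and the D2 background and 0 shared by both, but it gave no adjusted p for 83 of 220 regions in the B6 and 132 of 220 in the D2 background.

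The first of the 4 is the region near Cts8, whose B6 libraries were at 18.9, 18.3 and 12.5 CPM and whose B6-13D2 libraries were at 4.11 and 2.71 CPM. In the D2 background the B6 segment gave 14.4, 11.2 and 7.73 CPM and the D2 segment 0.90 and 3.10 CPM. The libraries with a B6 segment lay above those with a D2 segment in both backgrounds, with log2 fold changes of -2.25 ± 0.43 (adjusted p = 8.68e-05) and -2.34 ± 0.56 (adjusted p = 0.00546, or 0.374 without D2 replicate 1). The intron of Aopep, an aminopeptidase gene that GENCODE lists as 2010111I01Rik, showed the same order at chr13:63216535-63217175: 21.8, 19.8 and 17.0 CPM in B6, 6.16 and 4.06 in B6-13D2, 18.0, 12.7 and 11.2 in D2-13B6, and 3.58 and 3.88 in D2. Its changes were -1.91 ± 0.38 (adjusted p = 0.000164, or 0.0977 without B6-13D2 replicate 2) and -1.85 ± 0.47 (adjusted p = 0.00897, or 0.227 and 0.165 without D2 replicate 1 or 2).

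The one region of the 4 that was higher with the D2 segment was chr13:63925695-63926033, 25.4 kb from Ercc6l2. It was at 0.73, 0.76 and 0 CPM in B6 and 0, 0.75 and 0 CPM in D2-13B6, but at 13.0 and 14.9 CPM in B6-13D2 and 8.95 and 6.2 CPM in D2. With all B6-segment libraries at 3 counts or fewer, the D2 segment was at least 6.27-fold higher in the B6 background and at least 3.23-fold in the D2 background (adjusted p = 2.79e-06 and 0.00153, the latter 0.0533 without D2 replicate 1). In the separate lines it was at least 6.81-fold higher in D2. The fourth region, chr13:64045411-64046495, lies 11.8 kb from Hsd17b3, which encodes an enzyme of testosterone synthesis. It was at 26.2, 19.8 and 19.9 CPM in B6, 2.74 and 3.39 in B6-13D2, 8.09, 10.46 and 9.83 in D2-13B6 and 3.58 and 0.78 in D2. The segment changed it by -2.81 ± 0.42 and -2.15 ± 0.58 (adjusted p = 6.71e-08 and 0.0187). The second call was lost without D2 replicate 2 (0.506), without D2-13B6 replicate 2 (0.0593), with DESeq2 (0.133) and with no count filter (0.0745). With a B6 segment it was also lower in the D2 background than in the B6 background, by -1.20 ± 0.29 (adjusted p = 0.00105).

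**Figure D2:**
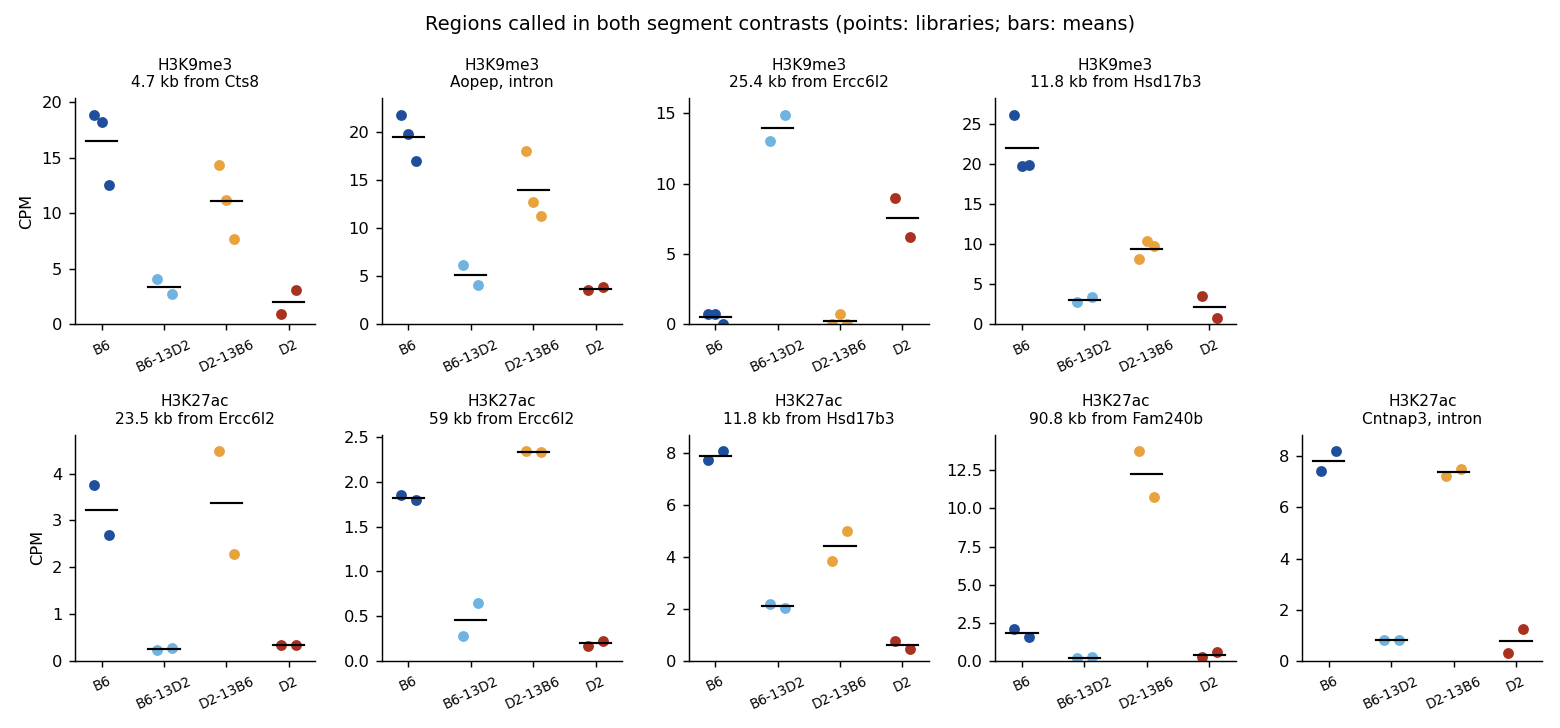
CPM (linear axis from 0) in B6, B6-13D2, D2-13B6 and D2 for regions called in both segment contrasts; points are libraries or summed pairs and bars are means. Points with a D2 segment do not overlap those with a B6 segment in these regions, which were chosen for calls in both comparisons. An example is the region beyond Ercc6l2 with 6.2 to 14.9 CPM of H3K9me3 against at most 0.76. Lines that share a segment can still differ, as for H3K27ac near Hsd17b3 (-1.66, D2 minus B6-13D2).

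Other H3K9me3 regions were called in one background only. At chr13:64854989-64855637 in Cntnap3, B6 was at 9.44, 12.9 and 13.3 CPM and B6-13D2 at 0.68 and 0, at least 5.82-fold lower, whereas D2-13B6 was at 9.89, 3.73 and 9.83 and D2 at 4.48 and 1.55 CPM (-1.38 ± 0.57, adjusted p = 0.277). The 2 differences themselves did not differ at an adjusted p under 0.05 (0.322). At chr13:64589437-64589778, B6 was at 11.6, 10.7 and 15.5 CPM and B6-13D2 at 0.68 and 1.35, at least 6.16-fold lower. There D2-13B6 was at 1.80, 2.99 and 5.62 CPM and D2 at 5.37 and 3.88, so the groups overlapped in the D2 background.

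In the main fit, segment calls for H3K27ac made up a larger share in the interval than over the genome, a difference that was not tested. DESeq2 called fewer regions of the interval in both backgrounds, as given in the section on the processing. For the B6 background there were 103 among 476 regions, 51 higher and 52 lower with the D2 segment, against 13% (7.6% and 5.4%), and 64 without B6 replicate 3. For the D2 background there were 67, 23 higher and 44 lower, against 6.67% (1.44% and 5.24%), 72 without D2-13B6 replicate 1 and 43 without D2 replicate 2. Both comparisons called 32 regions in the same direction, 8 higher and 24 lower, against 2.25%, and none in opposite directions. The balance of directions moved with the scaling: on the rest of chromosome 13, 10 of 74 were higher in the D2 background and 1 of 30 in both, and on library totals 37 of 109, 42 of 83 and 12 of 40 were higher in the B6 background, the D2 background and both. These 32 lay unevenly: 1 of 67 tested regions between 60 and 61 Mb, 2 of 62, 4 of 127 and 10 of 114 in the next 3 Mb, and 15 of 106 between 64 and 65 Mb, 14 of which were lower. Of the 32, 25 overlapped a tested region of the separate list, where 17 were called in the same direction, 2 in the opposite one and 6 were not called. Some of them overlapped the same wider region of that list, whose single test then counts more than once.

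Summed acetylation was lower with the D2 segment in each of the 5 steps from 63.75 to 65 Mb, in both backgrounds. Few regions carried some of these sums: from 64 to 64.25 Mb the median region was at 0.03 in the D2 background, with 2 of 48 called higher and 8 lower, and from 64.25 to 64.50 Mb the medians were -0.12 and -0.13 in the B6 and the D2 background. From 63.75 to 64 Mb, which holds Ercc6l2 and the sequence beyond it, the B6 samples were at 150 and 154 CPM and B6-13D2 at 120 and 117, whereas D2-13B6 was at 150 and 136 and D2 at 71.2 and 68.5. The changes were -0.35 ± 0.07 and -1.02 ± 0.07 (adjusted p = 0.000732 and 4.36e-08), and the separate lines gave -0.93 ± 0.05. The last step, from 64.75 to 65 Mb around Cntnap3, was at 37.5 and 37.7 CPM in B6, 15.8 and 16.4 in B6-13D2, 39.7 and 32.3 in D2-13B6, and 20.5 and 21.4 in D2. Its changes were -1.23 ± 0.12 and -0.77 ± 0.12, and -0.94 ± 0.11 in the separate lines. The 3 steps between them changed by -0.37 to -0.51 in the B6 background and by -0.29 to -0.71 in the D2 background. In all, 13 steps were called in each background, against 32.7% and 29.3% over the genome, and 10 were called in both in the same direction (4 higher, 6 lower), against 9.51%. The separate lines were called in 3 of those 5 distal steps: the steps from 64.25 to 64.50 and 64.50 to 64.75 Mb were at -0.05 and -0.08 (adjusted p = 0.348 and 0.42).

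**Figure D3:**
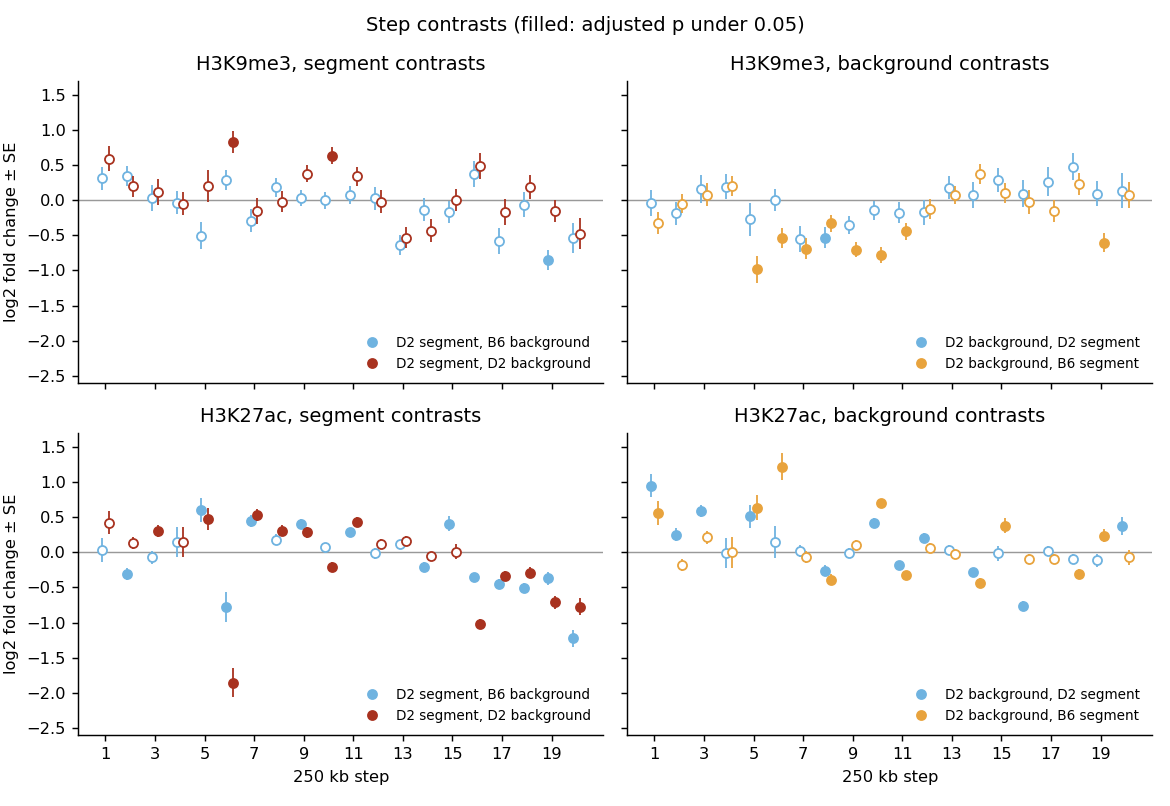
Log2 fold change ± SE of each 250 kb step (n = 2 or 3 libraries per genotype) in the segment and background comparisons for both marks; filled points passed an adjusted p under 0.05. The last 5 steps are filled and below 0 in both segment comparisons of H3K27ac, from -0.29 to -1.23.

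Single regions changed more than these sums. The region at chr13:63923805-63924466, 23.5 kb from Ercc6l2, was at 3.76 and 2.69 CPM in B6 and 4.47 and 2.28 in D2-13B6, but at 0.23 and 0.28 in B6-13D2 and 0.33 and 0.34 in D2. The changes were -3.71 ± 0.43 and -3.20 ± 0.44 (adjusted p = 1.21e-08 and 3.47e-07). It lies next to the region that gained H3K9me3 with the D2 segment. The Cntnap3 intron at chr13:64854989-64855637 was at 7.42 and 8.18 CPM in B6, 0.84 and 0.83 in B6-13D2, 7.22 and 7.49 in D2-13B6 and 0.33 and 1.25 in D2, with changes of -3.20 ± 0.29 and -3.50 ± 0.32. Neither background comparison was called there, and samples with a B6 segment did not overlap those with a D2 segment.

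Near Hsd17b3, the region at chr13:64045411-64046495 that lost H3K9me3 with the D2 segment also lost H3K27ac: 7.72 and 8.07 CPM in B6, 2.19 and 2.03 in B6-13D2, 3.86 and 4.99 in D2-13B6, and 0.78 and 0.45 in D2. The segment changed it by -1.88 ± 0.23 and -2.75 ± 0.32, and the background by -1.66 ± 0.36 and -0.79 ± 0.21 with the D2 and the B6 segment. An intergenic region at chr13:63959271-63959876 was at 1.86 and 1.79 CPM in B6, 0.28 and 0.65 in B6-13D2, 2.34 and 2.33 in D2-13B6, and 0.17 and 0.23 in D2. It changed by -2.15 ± 0.42 in the B6 background and was at least 9.2-fold lower in D2 than in D2-13B6. Both regions had fewer counts with the D2 segment for acetylation in every sample.

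Fancc, which encodes a subunit of the Fanconi anaemia core complex of DNA repair, held 4 regions that fell in both, 2 of them wholly in introns. The one with most counts, chr13:63352169-63354192, over an exon of a noncoding Fancc transcript, was at 62.9 and 71.2 CPM in B6, 18.9 and 16.9 in B6-13D2, 47.7 and 62.1 in D2-13B6 and 20.5 and 21.4 in D2, with changes of -1.89 ± 0.14 and -1.41 ± 0.14. The other 3 changed by -0.94 to -2.21 and by -1.01 to -1.55. Another region in Fancc, which Aopep also overlaps, rose by 1.41 and 1.17. Single regions within Ctsl, a lysosomal cathepsin (-2.43 and -1.71), Hsd17b3 (-1.78 and -2.20) and the phosphatase gene Cdc14b (-1.52 and -2.15) were lower as well. These genes were named after their values were seen. Regions that fell with the D2 segment had a median repeat share of 33.9% in the B6 and 29.6% in the D2 background, against 15.4% over all tested regions, and the part of repeats in these results was not tested.

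The sequence beyond Zfp808, a KRAB zinc finger gene, behaved differently in D2-13B6 than in the other 3 lines. At chr13:62253777-62254205, 17.6 kb from the gene, H3K27ac was at 17.9 and 15.9 CPM in D2-13B6, against 1.7 and 1.23 in B6, 0.84 and 1.11 in B6-13D2 and 1.67 and 0.80 in D2. H3K9me3 at the same region was lowest in D2-13B6, at 4.50, 4.48 and 5.62 CPM, with 25.4, 16.7 and 26.5 in B6, 30.1 and 24.4 in B6-13D2 and 20.6 and 17.8 in D2. The 3 D2-13B6 libraries thus lay apart from all others in both marks, in opposite directions. Against D2, the fold changes of the D2 segment were -3.62 ± 0.24 for H3K27ac and 1.94 ± 0.39 for H3K9me3 (adjusted p = 3.71e-16 and 0.00027). Against B6, D2-13B6 differed by 3.44 ± 0.23 and -2.21 ± 0.34.

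Its neighbours were also highest in H3K27ac in D2-13B6. At chr13:62254851-62255912 H3K27ac was at 20.8 and 22.3 CPM in D2-13B6 and at 1.66 to 3.92 elsewhere, and H3K9me3 at 1.80, 2.24 and 8.43 CPM in D2-13B6 and at 18.8 to 33.9 elsewhere. H3K27ac at this region was also called in the B6 background, lower in B6-13D2 than in B6 by -1.09. At chr13:62253318-62253553 H3K27ac was at 9.76 and 9.10 CPM in D2-13B6 and at 0.55 to 1.23 elsewhere. H3K9me3 there was at 1.80, 2.99 and 6.32 CPM in D2-13B6 and at 6.63 to 18.6 elsewhere, and D2-13B6 differed from B6 by -1.06 ± 0.44, which was not called (adjusted p = 0.0746). Between the separate lines, H3K9me3 at the first region differed by -0.28 ± 0.25 (D2 minus B6, adjusted p = 0.412). At the second it was higher in D2 by 0.55 ± 0.20 (adjusted p = 0.0274), and the overlapping H3K27ac region of the separate list, chr13:62255214-62256512, was lower in D2 by -1.04 ± 0.20 (adjusted p = 2.65e-05), both in the direction of the D2 minus D2-13B6 difference. The difference between the 2 segment effects was called for H3K27ac at all 3 regions, by 2.42 to 2.90, and for H3K9me3 at the second (-2.03, adjusted p = 0.0152). Since D2-13B6 was a single line, its genotype and its clone cannot be told apart. A repeat-covered region at chr13:61422422-61423009, 64.2 kb from the placental cathepsin gene Cts7, also had its highest acetylation in D2-13B6, at 14.8 and 12.9 CPM against 0.33 to 2.05 in the other lines.

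**Figure D4:**
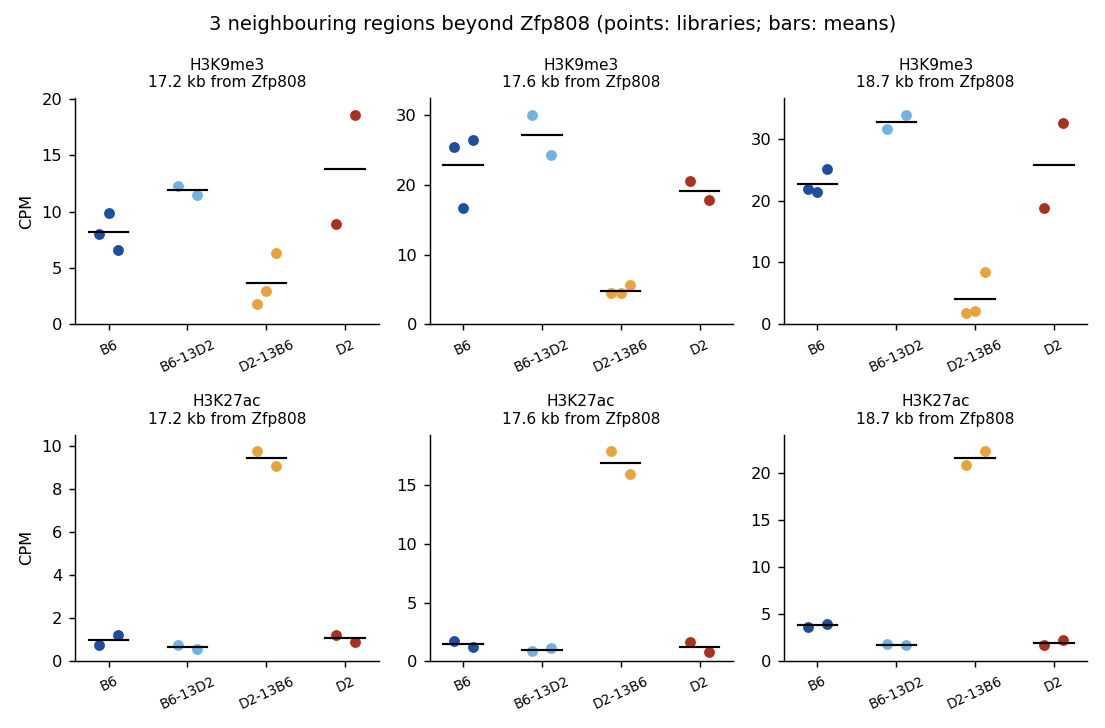
CPM (linear axis from 0) in the 4 lines of the repeated series at 3 neighbouring regions beyond Zfp808, for H3K9me3 and H3K27ac; points are libraries or summed pairs and bars are means. D2-13B6 is the only line with high H3K27ac, from 9.10 to 22.3 CPM, and it has the lowest H3K9me3.

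The background was compared with a D2 segment (D2 minus B6-13D2) and with a B6 segment (D2-13B6 minus B6), again without shared libraries. H3K9me3 was called at 16 regions with the D2 segment, 1 higher and 15 lower in the D2 background, against 8.22% over the genome (2.86% and 5.37%). Leaving out 1 library of B6-13D2 or D2 left 5 to 8 calls. With the B6 segment it was called at 47, 2 higher and 45 lower, against 20.9%, at 53 without D2-13B6 replicate 1, at 30 without B6 replicate 1 and at 31 without D2-13B6 replicate 3. Over the genome that comparison called 8.75% of regions higher and 12.2% lower. When libraries were scaled on the rest of chromosome 13 instead of the genome, 39 regions were called with the B6 segment, of which 12 were higher. Both comparisons called 12 regions, all lower, against 5.73% (5 without any 1 library of B6-13D2 or D2, 7 without D2-13B6 replicate 3), with 4 between 61 and 62 Mb, 6 between 62 and 63 Mb and 2 between 63 and 64 Mb. Between the separate lines 5 of these were called in the same direction and 7 were not called.

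With the B6 segment, 8 of 20 steps were lower in H3K9me3 in the D2 background, a share near the 35.5% of steps called over the genome. Of these, 7 ran without a gap from 61 to 62.75 Mb. The 3 from 61 to 61.75 Mb, over the placental cathepsins, changed by -0.54 to -0.99, the last of these in a step with only 3 regions. The 4 from 61.75 to 62.75 Mb, over the zinc finger cluster and the sequence before it, changed by -0.33 to -0.78. The step from 62.25 to 62.50 Mb changed by -0.78 ± 0.11 (adjusted p = 5.33e-05). With the D2 segment only the step from 61.75 to 62 Mb was lower (-0.53 ± 0.15, adjusted p = 0.0318), against 11.2%, which made it the only step lower in both, against 9.22%. On the rest of chromosome 13 the median region was at -0.32 in the comparison with the B6 segment. The segment called 1 step in the B6 background, from 64.50 to 64.75 Mb (-0.85 ± 0.15), against 0.176%. In the D2 background it called 2, against 1.98%: 61.25 to 61.50 Mb (0.83 ± 0.16) and 62.25 to 62.50 Mb (0.64 ± 0.13). No step (0) was called by edgeR in both segment comparisons, against 0.0684%, and 2 were at an unadjusted p under 0.05 in both. Each of these 1 or 2 calls was lost without one or another library, and without D2-13B6 replicate 1 the counts were 4 (background with the D2 segment), 2 and 5.

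Single regions that went with the background included chr13:61721958-61722547, in an intron of the noncoding gene Gm49357. It was at 21.8, 19.0 and 17.7 CPM in B6, 13.0 and 16.9 in B6-13D2, 4.50, 5.23 and 4.21 in D2-13B6, and 1.79 and 3.10 in D2. The lines with a D2 background did not overlap those with a B6 background, with changes of -2.54 ± 0.52 and -2.05 ± 0.35, and the separate lines gave -2.51 ± 0.28. At chr13:63959271-63959876 H3K9me3 was at 17.4, 15.2 and 20.6 CPM in B6, 11.6 and 8.13 in B6-13D2, 0.90, 4.48 and 3.51 in D2-13B6, and 2.69 and 1.55 in D2. It was at least 3.94-fold lower in the D2 background with the D2 segment and changed by -2.49 ± 0.39 with the B6 segment. The first call was lost without B6-13D2 replicate 1 (adjusted p = 0.11), without D2 replicate 2 (0.187) and with DESeq2 (0.0927). H3K9me3 there was called in both background comparisons, and H3K27ac at the same region in both segment comparisons. Both B6-13D2 libraries were also below every B6 library in H3K9me3, and the difference between the marks was not tested.

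Within the zinc finger genes themselves, the most methylated region of Zfp808 lay in an intron at chr13:62228240-62229515. It was at 34.1, 28.9 and 32.4 CPM in B6, 23.3 and 27.8 in B6-13D2, 19.8, 16.4 and 9.83 in D2-13B6, and 17.9 and 14.7 in D2. It was lower in D2-13B6 than in B6 by -1.08 ± 0.25 (adjusted p = 0.000522) and in D2 than in B6 by -0.97 ± 0.29 (adjusted p = 0.0124, or 0.0539 without B6 replicate 1 and 0.22 without D2 replicate 2) in the repeated and -0.84 ± 0.17 in the separate lines, while neither segment comparison called it, nor did the background comparison with the D2 segment (-0.65 ± 0.31, adjusted p = 0.211). The most methylated region shared by Zfp935 and Zfp934, at chr13:62553087-62553579, had a strain difference of 0.03 ± 0.19 in the separate lines (adjusted p = 0.934) and was called in no comparison of the repeated series. Closest to a call were the segment in the D2 background (0.88 ± 0.27, adjusted p = 0.0519) and the background with the B6 segment (-0.61 ± 0.24, adjusted p = 0.0592).

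Between the parental lines of the repeated series (D2 minus B6), 31 of 220 regions were called for H3K9me3, 4 higher and 27 lower, against 11.3% (4.58% and 6.76%), and 19, 17 or 13 without B6 replicate 1, D2 replicate 1 or D2 replicate 2. For H3K27ac 152 of 476 were called, 71 higher and 81 lower, against 28.1% (14.7% and 13.4%), with 53 of 160 higher under scaling on library totals. The difference between the segment effects in the 2 backgrounds was called at 4 regions for H3K9me3, 0 higher and 4 lower, against 0.389% (0.0737% and 0.315%), of which leaving out any of 7 single libraries left 1. For H3K27ac it was called at 27, 21 higher and 6 lower, against 5.3% (3.93% and 1.37%), at 60 without D2-13B6 replicate 1 and at 12 without D2 replicate 2.

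For H3K27ac, the background called 100 regions with the D2 segment (43 higher, 57 lower, against 26.1% over the genome, 13.1% in each direction; 64 without B6-13D2 replicate 2) and 142 with the B6 segment (65 higher, 77 lower, against 30.3%, of which 17.2% higher and 13.1% lower). Scaling on the rest of chromosome 13 gave 92 higher among 143 with the B6 segment, and scaling on library totals gave 49 among 161, so the balance of directions in that comparison depends on the scaling. Both comparisons called 55 regions in the same direction, 25 higher and 30 lower, against 15.2%, and 4 in opposite directions. Without B6-13D2 replicate 2 they were 36. Some of the 55 were also among the 32 regions called in both segment comparisons. The direction with the D2 background was that with the D2 segment at chr13:64045411-64046495 and the opposite at chr13:63719278-63721804. Scaled on the rest of chromosome 13, 30 of 51 were higher, and on library totals 21 of 65. Of the 55, 52 overlapped a tested region of the separate list, where 34 were called in the same direction, 3 in the opposite one and 15 were not called. Again several overlapped the same region of that list, so that these counts hold repeats of single tests. By steps, 11 and 10 were called, against 51.3% and 53.5%, and 6 in both, against 31.2%; without B6-13D2 replicate 2 or D2 replicate 2 the first count fell to 7 or 6. Between 60 and 61 Mb all 7 regions called in both were higher in the D2 background.

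Promoters were described for 32 genes of the interval in fixed families. Within 1 kb of a start, 20 genes had a listed region and 18 a tested one in the repeated H3K27ac series. Each gene was represented by the region near a start that held most counts of the mark. At these, the segment called 3 of 18 genes in each background, against 13% and 6.67% of all regions, and the calls were higher with the D2 segment: Zfp935, Zfp934 and Ctla2b in B6, and Zfp935, Zfp934 and Slc35d2, a nucleotide sugar transporter gene, in D2. Other regions near a start were lower. At chr13:63352169-63354192, within 1 kb of an annotated start of Fancc, H3K27ac was at 62.9 and 71.2 CPM in B6, 18.9 and 16.9 in B6-13D2, 47.7 and 62.1 in D2-13B6, and 20.5 and 21.4 in D2, with changes of -1.89 ± 0.14 and -1.41 ± 0.14 (adjusted p = 1.71e-14 and 1.54e-10). At chr13:64366036-64369170, near a start of Ctsl, the changes were -2.43 ± 0.18 and -1.71 ± 0.19 (adjusted p = 1.93e-14 and 2.75e-09). Of all 97 tested regions within 1 kb of a start of any gene, the D2 segment had 18 higher and 6 lower in the B6 background, and 6 and 6 in the D2 background.

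The call of Ctla2b was lost in 5 of 20 alternatives, among them without B6 replicate 1 or 3 or B6-13D2 replicate 2 (adjusted p from 0.0599 to 0.153 over the 5). That of Slc35d2 was lost in 2, among them without D2 replicate 2 (0.0951 and 0.108). Zfp935 and Zfp934 share 1 region, chr13:62557970-62559185, which was at 17.0 and 17.6 CPM in B6, 26.0 and 24.1 in B6-13D2, 21.7 and 22.0 in D2-13B6, and 33.5 and 27.4 in D2. Its changes were 0.54 and 0.49 (adjusted p = 0.00626 and 0.0186). The first was not called without B6 replicate 3 (0.0547), and the second in 6 of 20 alternatives, among them without B6 replicate 3, B6-13D2 replicate 2 or D2-13B6 replicate 1 (0.0729 to 0.204 over the 6). In the strain comparison, the larger region at the Zfp935 start in the separate list differed between strains by 1.00 (adjusted p = 4.55e-15). The promoter of Zfp808, at 28.4 to 39.6 CPM in all samples, was not called by the segment or the background, but was higher in D2 than in B6 by 0.35 ± 0.13 between the parental lines of this series (adjusted p = 0.0442), a call lost in 9 of 20 alternatives, among them without B6 replicate 3, B6-13D2 replicate 2 or D2 replicate 2 or 3 (0.0536 to 0.148 over the 9). That parental comparison called 9 of 18 genes higher, Zfp808 among them, and 1 lower (Aopep), against 28.1% of all regions. Of these, Ctla2b and Aopep were each lost in 4 alternatives, with B6 replicate 3 or D2 replicate 2 left out in both cases and B6-13D2 replicate 2 for Aopep (0.0546 to 0.111 and 0.0559 to 0.407).

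The 2 listed hedgehog receptor genes, Gas1 and Ptch1, were called in both background comparisons, but only Gas1 also differed between the separate lines. Gas1, a co-receptor that binds hedgehog ligands, was at 5.87 and 4.03 CPM in B6, 5.21 and 4.89 in B6-13D2, 10.8 and 12.1 in D2-13B6, and 14.2 and 12.7 in D2. It was higher in the D2 background by 1.42 with the D2 segment and 1.15 with the B6 segment (adjusted p = 2.94e-08 and 3.09e-06), and by 0.65 between the separate lines. Ptch1, the receptor itself, was at 16.7 and 19.4, 23.9 and 23.3, 41.7 and 32.1, and 37.3 and 35.2 CPM in the same order of lines. It was higher by 0.62 (adjusted p = 0.0754 without B6-13D2 replicate 2) and 1.03, but the separate lines differed by -0.01 (adjusted p = 0.886), at 47.3 to 53.6 CPM in all 6. Dapk1, which encodes a death-associated kinase, was at 5.26 and 6.16, 4.00 and 4.52, 8.54 and 10.6, and 12.1 and 9.66 CPM, and rose by 1.39 and 0.79 with the background, by 0.49 between the separate lines.

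In all, 5 genes were higher (Zfp367, Ptch1, Gas1, Dapk1 and Habp4) and 2 lower (Fbp2, a gluconeogenic phosphatase gene, and Aopep) in the D2 background with the D2 segment, of 18 tested, against 26.1% of all regions. With the B6 segment 6 were higher (the same 5 and Ctla2b) and 1 lower (Aopep), against 30.3%. Fbp2 was lost in 8 of 20 alternatives, among them without B6 replicate 3, B6-13D2 replicate 2 or 3 or D2 replicate 1 or 2 (0.0556 to 0.198 over the 8), and Zfp367 with the D2 segment without B6-13D2 replicate 2 (0.38). With the B6 segment, Zfp367 was lost in 6, among them without B6 replicate 1, B6-13D2 replicate 2 or D2 replicate 2 (0.0503 to 0.121), Aopep in 3, among them without B6 replicate 3 (0.0537 to 0.199), and Ctla2b in 2, among them without D2-13B6 replicate 3 (0.0575 and 0.0866). Marker sums also differed between these lines. H3K27ac at the 4 of 5 fibroblast markers with a listed region summed to 9.82 to 14.7 CPM in B6, 16.3 to 19.9 in B6-13D2, 13.9 to 24.2 in D2-13B6 and 22.0 to 26.4 in D2, but Postn was at 1.71 to 2.83 CPM in B6 and 0.40 to 0.57 in D2. The stem cell markers summed to 1203 to 1270 CPM in B6, 1296 to 1338 in B6-13D2, 1404 to 1429 in D2-13B6 and 1404 to 1439 in D2. The primitive endoderm markers summed to 10.7 to 13.5 CPM in B6-13D2, below all libraries of B6 (15.9 to 19.8), D2-13B6 (15.3 to 23.0) and D2 (16.1 to 18.3). The part of these markers in the promoter differences was not tested. In the separate lines, where Thy1 alone of the fibroblast markers had a listed region, 6 of 17 tested genes were higher in D2 (Zfp935, Gas1, Fbp1, Dapk1, Habp4 and Cntnap3) and 4 lower (Ctsl, Fancc, Ercc6l2 and Aopep), against 49.3% of all regions called in that comparison. Cntnap3 was lost in 3 of 13 alternatives, among them without B6 or D2 replicate 1 (0.0787 to 0.179). Of the 14 placental cathepsins and neighbours, including Ctsl, 3 had a region of the shared list at a start (Ctsl, Ctla2a and Ctla2b), and 1, Ctsl, had one of the separate list.

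**Figure D5:**
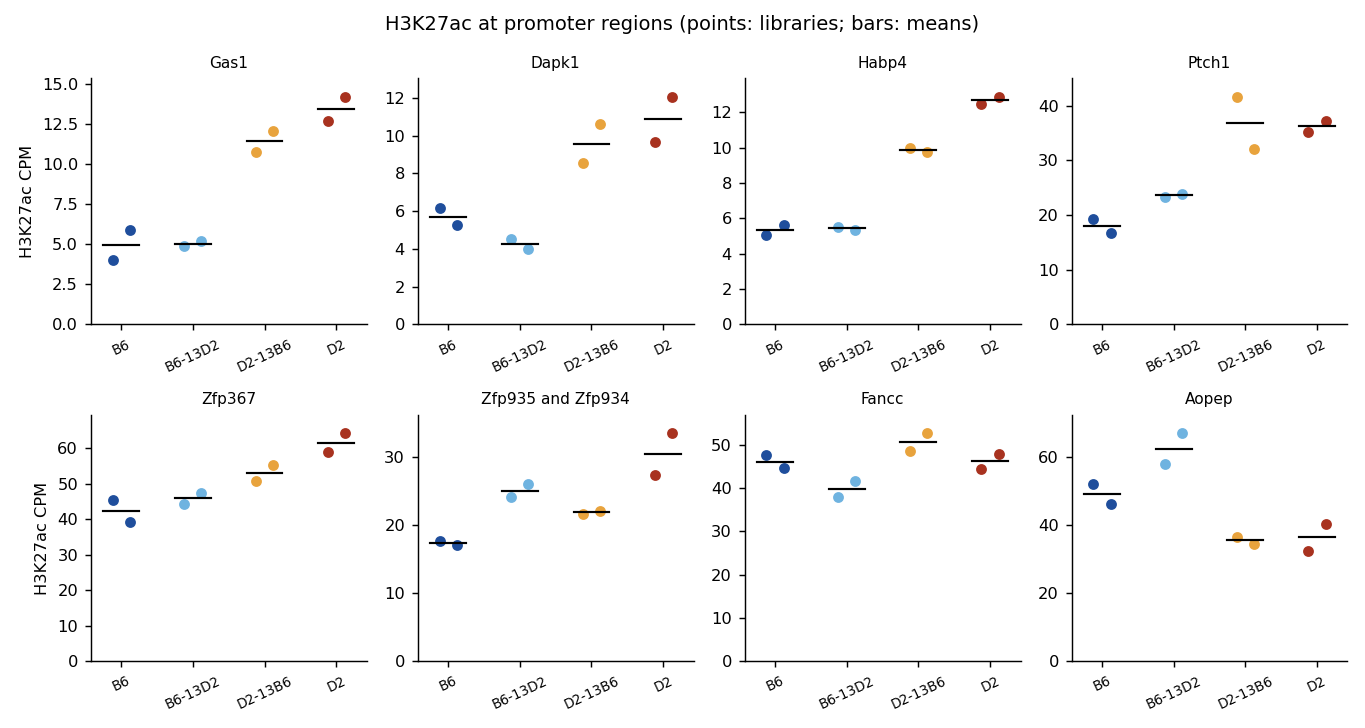
H3K27ac CPM (linear axis from 0) at promoter regions of named genes in the 4 lines of the repeated series; points are a library or a summed pair and bars are means. Gas1 and Dapk1 are higher in both lines with a D2 background, at 8.54 to 14.2 CPM against 4.00 to 6.16.

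Fewer promoters could be tested for H3K9me3. In the separate lines, Ercc6l2 was higher in D2 and Zfp935, Zfp934, Fancc and Habp4 were lower, of 6 tested genes, against 34.7% of all regions called. Zfp935 and Zfp934 share the H3K9me3 region, chr13:62557394-62557898, so that here and in the repeated series 1 region counts for both genes. That call was lost in 7 of 13 alternatives, among them without B6 replicate 1 or any 1 of the 3 D2 lines (0.0613 to 0.236), and that of Fancc in 1 (0.0748). In the repeated series 14 genes were tested. The segment called 0 in either background by the same edgeR test, against 1.69% and 2.2% of all regions in the B6 and the D2 background, with 1 (Fancc) at an unadjusted p under 0.05 with the B6 background and 0 with the D2 background. The D2 background called 3 lower with the D2 segment (Zfp935, Zfp934 and Fancc) and 1 lower with the B6 segment (Fancc), against 8.22% and 20.9% of all regions. With the D2 segment, the shared region was lost in 7 of 17 alternatives and Fancc in 4 of 16, both with either B6-13D2 library left out, and the first also without D2 replicate 2, the second without D2 replicate 1 (0.0538 to 0.411 and 0.0687 to 0.271). With the B6 segment, Fancc was lost in 8 of 16, among them without any 1 of the 3 B6 libraries or D2-13B6 replicate 2 or 3 (0.0511 to 0.229).

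Both marks could be called at one region. With the segment in the B6 background, 7 regions were called for both marks, 1 of them in opposite directions, against 51.5% opposite over the genome. In the D2 background it was 8 of 9, against 73.9%. With the background it was 6 of 8 for lines with a D2 segment, against 36.9%, and 19 of 20 for lines with a B6 segment, against 52.5%. The regions near Hsd17b3 and in Cntnap3 are among the 6 that lost both marks in B6-13D2 relative to B6, and those beyond Zfp808 are among the 8 that moved oppositely in the D2 background. The Aopep intron was the exception in the B6 background, since its H3K27ac rose by 1.05 (log2) where its H3K9me3 fell by 1.91. The region near Cts8 gained H3K27ac by 1.61 in the D2 background where its H3K9me3 fell by 2.34.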

How the data were processed

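The authors deposited 4 tables of raw read counts per ChIP-seq region, and the values were used as deposited. The submitters' processing notes name Trimmomatic 0.39, HISAT2 2.2.1, MACS 1.4.2, bedtools 2.9.2, edgeR and the build mm10, which has the GRCm38 coordinates used here. Per the labels, 75 bp reads were taken from MNase-digested chromatin. Region starts were read as counted from 0, and 1 was added. Of the columns, 2 matched no sample and were not used.

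Regions were filtered with filterByExpr (minimum count 10, minimum total 15), scaled by TMM and tested with the quasi-likelihood F-test of edgeR 4.0.16 (R 4.3.3), adjusted by Benjamini-Hochberg over all regions of a table. Sums over 250 kb steps were fitted likewise. CPM use TMM-scaled library sizes. Technical pairs that agreed within sampling noise (chi-square per degree of freedom of 0.905 to 0.967) were summed. DESeq2 1.42.0, other scalings and filters, unsummed pairs, a replicate block and left-out libraries were alternatives.

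Regions named are, per mark and comparison, the 4 called regions with the largest fold change whose groups did not overlap, those called in both segment comparisons (5 with the largest smaller change where there were more), promoter regions of the listed genes, and the most methylated region of each zinc finger gene. The members and lists were chosen with earlier results of these data known. The test was checked on simulated counts. Gene positions are from GENCODE M21 and sequences from the RefSeq genome.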

Additional observations from a re-analysis of the deposited data

Results flagged for a closer look

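The effect of the segment differed between the backgrounds by a test of the difference itself (B6-13D2 minus B6, less D2 minus D2-13B6, on the log2 scale) at several regions already described, and it called 4 of 220 regions for H3K9me3 (0.389% over the genome) and 27 of 476 for H3K27ac (5.3%). The value for H3K27ac beyond Zfp808 was 2.64 at chr13:62253318-62253553, 2.90 at chr13:62253777-62254205 and 2.42 at chr13:62254851-62255912, where acetylation was high in D2-13B6 alone. H3K9me3 at the last of these differed by -2.03. In the Zfp808 intron at chr13:62228240-62229515 the H3K27ac value was 0.88.

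Farther along, H3K27ac differed by 1.7 at chr13:63962419-63963025 and by 2.25 at chr13:64024584-64025523. At the latter, 32.7 kb from Hsd17b3, B6-13D2 was at 5.40 and 4.98 CPM and every sample of the other lines at 0.91 to 2.03. H3K9me3 differed by -2.51 at the repeat-covered region chr13:64588613-64589287 and by -3.85 at chr13:64589437-64589778, where it was low in B6-13D2 relative to B6. All of these rest on single lines, so genotype and clone cannot be told apart.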

How the results depend on the processing

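Of the called values of all named regions (62 for H3K27ac and 32 for H3K9me3), the alternatives kept direction and call in 1079 and 440 cases and lost the call in 55 and 45. Values that were not called became called in 102 and 9 cases, and none of these calls reversed. The counts of calls in the interval moved by over 1.5 times in these cases, whose cause was not tested. DESeq2 called for H3K27ac 49 and 37 regions (segment, B6 and D2 background), 59 and 83 (background, D2 and B6 segment), 88 (parental), 16 (difference of segment effects), 18 (both segment comparisons) and 34 (both background comparisons). In the same order it called for H3K9me3 7, 4, 3, 18, 11, 0, 0 and 2. DESeq2 gave no adjusted p for up to 169 of 220 H3K9me3 and 290 of 476 H3K27ac regions, and for 27 named results, which are not counted as lost. A mean of at least 20 counts, which leaves fewer regions, gave for H3K9me3 0, 5, 6, 15, 12, 2, 0 and 2, and 24 in the strain comparison. At an unadjusted p under 0.05, edgeR had 31 regions for the segment in the B6 background.

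Scaling on the rest of chromosome 13 gave 1 for the H3K9me3 difference and 6 for both background comparisons, library totals gave 7 for the latter, and no count filter gave 2 for the former. Scaled on the rest of chromosome 13, 26 of 29 H3K27ac differences were higher, and on library totals 18 of 39. Shifted steps gave 7 for the H3K27ac segment in the D2 background, and for H3K9me3 6 (strain) and 0 and 1 (segment, B6 and D2 background). Steps of 500 kb gave for H3K9me3 1, 3 and 1 (segment in B6 and D2, background with the D2 segment).

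By their medians, the replicate numbers did not pair the samples: median correlations of same-numbered deviations lay between -0.050 and 0.049. The highest single value was 0.163, for H3K9me3 between replicate 1 of D2-13B6 and of D2, and replicate 2 of these lines gave 0.094. With a replicate block and pairs not summed, H3K27ac gave 111 (segment, D2 background), 59 (difference) and 60 (both segment comparisons), and 2 H3K9me3 steps were called for the background with the D2 segment. Pairs not summed without the block gave 112, 59 and 59.

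Leaving out single libraries gave, for H3K27ac in the first order, 64 to 133, 43 to 76, 64 to 119, 99 to 156, 104 to 179, 12 to 60, 22 to 35 and 36 to 65, and for H3K9me3 9 to 12, 6 to 18, 5 to 16, 30 to 53, 13 to 34, 1 to 4, 1 to 4 and 5 to 11. H3K27ac steps of the background with the D2 segment numbered 6 to 11. H3K9me3 steps numbered 0 to 2 and 0 to 5 (segment) and 0 to 4 (background with the D2 segment).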

Other observations

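The repeat-covered region at chr13:64588613-64589287, 90.8 kb from Fam240b, carried little acetylation with a D2 segment, at 0.19 and 0.28 CPM in B6-13D2 and 0.28 and 0.57 in D2. It was at 2.11 and 1.57 CPM in B6 and at 13.7 and 10.7 in D2-13B6. The samples of D2-13B6 thus lay above those of B6, and both above the lines with a D2 segment. The changes with the segment were -3.09 ± 0.46 and -4.97 ± 0.32 (log2), and D2-13B6 exceeded B6 by 2.65 ± 0.23.

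The 10 H3K9me3 regions called higher in D2 than in D2-13B6 had a median repeat share of 73.2%, against 23.1% of all tested regions. The 3 called lower had a median of 25.9%. Scaled on the rest of chromosome 13, 6 regions were called higher.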
